A study of Mus musculus with 22 samples.

Results

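RNA bound to astrocyte ribosomes was compared with the RNA of the whole tissue it was pulled from, in mouse visual cortex. The comparison took every pulldown library that had a column of values, 16 in number, and the 5 input libraries, so 21 of the 22 samples of the series were used. Dark rearing pulldown replicate 2 was not analysed here. Each pulldown was also set against the input of its own group.

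All animals were C57BL/6J mice carrying the GFAP-cre driver of line 73.12 together with RPL22-HA, kept with free access to chow, so every group carried the tag and no group lacked it. In such mice the Cre driver switches on a hemagglutinin (HA) tag on the ribosomal protein Rpl22 in cells in which the GFAP promoter is or has been active. Brains were perfused with 1% paraformaldehyde and dissected in the cold, the input RNA was extracted directly, and tagged ribosomes were captured with an antibody to HA and IgG beads. Libraries were then made from polyadenylated RNA. The groups were normal rearing under 12 hours of light a day to postnatal day 45 (3 pulldowns), darkness from birth to day 45, called dark rearing (4 pulldowns), 10 days of darkness at day 120 (3 pulldowns), and 2 days of monocular deprivation at day 28, taken from the hemisphere contralateral (3 pulldowns) or ipsilateral (3 pulldowns) to the deprived eye. Each group had 1 input, so the spread among inputs is a spread across groups. The normal and dark rearing inputs shared day 45, and the contralateral and ipsilateral inputs day 28. Between inputs of different ages, age and treatment could not be told apart. Within an age, single inputs do not separate treatment from the spread between libraries.

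Astrocytes take up glutamate and potassium released by neurons, store glycogen, make cholesterol and release proteins that act on synapses. Ribosome tagging reports RNA engaged by ribosomes of the tagged cell type, so RNAs of that type should be enriched over the input and RNAs of other types depleted. RNA that sticks to beads or that reaches the pulldown from other cells is carried along, which is why markers of the other types were followed beside those of astrocytes. Fewer cells of a type and less RNA per cell cannot be told apart in bulk libraries.

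The sequences around the transcription starts of 3 genes are shown: Gfap, whose promoter drove the Cre, Aldoc, among the largest increases, and Sst, the largest decrease. Whether promoter sequence has a part in the differences between pulldown and input was not tested. Each run holds 250 bases before the start in lower case and 50 bases from the start on in capitals, read from the RefSeq table of build GRCm38.p6, the same assembly as the mm10 named by the submitters.
Gfap, chr11:102897151-102897450, minus strand: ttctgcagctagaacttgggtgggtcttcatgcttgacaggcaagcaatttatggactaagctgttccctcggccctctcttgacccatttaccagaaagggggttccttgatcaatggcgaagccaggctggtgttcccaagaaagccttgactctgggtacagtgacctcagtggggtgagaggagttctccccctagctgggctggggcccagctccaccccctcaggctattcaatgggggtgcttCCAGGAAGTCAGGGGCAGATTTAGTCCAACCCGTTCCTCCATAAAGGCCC
Aldoc, chr11:78322823-78323122, plus strand: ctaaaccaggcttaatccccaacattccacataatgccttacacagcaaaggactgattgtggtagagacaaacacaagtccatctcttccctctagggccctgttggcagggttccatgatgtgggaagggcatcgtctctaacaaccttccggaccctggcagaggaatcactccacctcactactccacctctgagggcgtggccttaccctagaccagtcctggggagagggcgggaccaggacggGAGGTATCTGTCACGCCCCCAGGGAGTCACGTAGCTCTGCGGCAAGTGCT
Sst, chr16:23890795-23891094, minus strand: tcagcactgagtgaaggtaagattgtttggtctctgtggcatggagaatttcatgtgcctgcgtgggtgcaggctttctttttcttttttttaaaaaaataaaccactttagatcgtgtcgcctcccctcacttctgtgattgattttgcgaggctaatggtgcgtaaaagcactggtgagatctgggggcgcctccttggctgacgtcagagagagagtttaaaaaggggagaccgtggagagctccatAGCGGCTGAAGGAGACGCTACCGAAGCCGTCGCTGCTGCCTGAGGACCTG
The Sst window held TGACGTCA, the cyclic AMP response element (a palindrome, so both strands read alike), beginning 48 bases before the start. These letters occurred in 507 of 27025 promoters (1.88%), with 1 promoter taken per gene, the first listed. Among genes tested below they occurred in 2.42% of 2441 promoters of genes higher in the pulldown and in 3.72% of 3202 promoters of genes lower in it, against 3.31% of all 9273. TATAAA or its reverse complement TTTATA occurred in 7.13% of the promoters of genes higher in the pulldown and 6.12% of those of genes lower in it, against 6.47% of all tested and 14.2% of the whole table. The Gfap and Aldoc windows held none of these letters.

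Values were the authors' FPKM, fragments per kilobase of transcript scaled to the reads mapped, which allow levels of different genes to be set side by side. Depth, estimated from the step that 1 read makes in genes shorter than 130 bases, came to 21.1 to 51.2 M reads over 20 libraries. Contralateral pulldown replicate 2 gave no estimate and listed the fewest genes above 0 (14092, against at most 16702). Across genes, pulldowns of the same group correlated at 0.918 to 0.995, inputs among themselves at 0.939 to 0.993, and pulldowns with their own input at 0.691 to 0.836. These correlations describe the libraries and carry no test. Rn45s, the gene of the ribosomal RNA precursor, stood below 1000 FPKM in 3 pulldowns, replicate 3 of normal rearing and of both monocular groups. It lay between 4280 and 31654 FPKM in the other 13.

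Most genes differed between the pulldown and the input. Of 12070 genes with a mean above 1 FPKM, 3185 (26.4%) were higher in the pulldown and 6115 (50.7%) lower at an adjusted p under 0.05 by limma on log2(FPKM + 1), with a term for the group, so 77.1% differed in either direction. The median gene lay at −0.31 on the log2 scale. Quantile normalization brought the median to 0.01 and gave 4646 higher and 4638 lower genes, and median-ratio scaling gave 4460 and 4608. Calls kept under all 3 scalings numbered 3167 higher (26.2%) and 4264 lower (35.3%), and the terms rose and fell below refer to these unless a sentence says otherwise. All 16 pulldowns lay above all 5 inputs for 1799 genes (14.9%) and below all of them for 3486 (28.9%). Set against the own input, all 16 pulldowns were higher for 2269 genes (18.8%) and lower for 4758 (39.4%). The mean over the libraries was above 1 FPKM in both fractions for 11150 of the genes, in the pulldown alone for 348 and in the input alone for 572. The least abundant gene tested had a mean of 1.0048 FPKM and the most abundant left out had 1. A pseudocount of 1 understates changes of genes near that level.

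**Figure D1:**
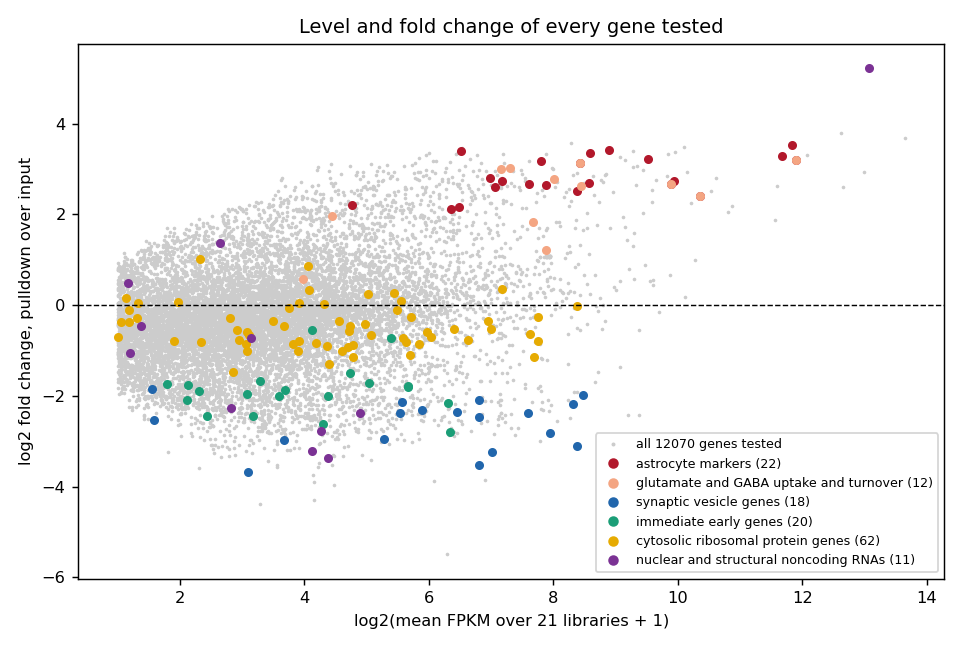
Log2 fold change of pulldown over input (vertical) against log2 of the mean FPKM over 21 libraries plus 1 (horizontal) for all 12070 genes tested, as points, with 6 gene lists coloured. The 22 astrocyte markers lie between 2.11 and 3.52, and the 18 synaptic vesicle genes between −3.68 and −1.85.

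A few astrocyte transcripts took up much of each pulldown. Apoe, the main lipid carrier apolipoprotein of the brain, had 747, 1825, 1061, 1354 and 1531 FPKM in the inputs of normal rearing, dark rearing, 10 days of darkness and the contralateral and ipsilateral cortex. In the pulldowns it ran from 11019 over a median of 16033 to 21170 FPKM. The fractions did not overlap, and Apoe made up 3.09% to 5.43% of summed FPKM in a pulldown against 0.277% to 0.53% in an input. Its log2 fold change, 3.68, was the largest among genes whose fractions did not overlap. The next 4 were Tst, a mitochondrial sulfurtransferase (3.56), Aldoc (3.52), Mfge8, a bridge between dying cells and phagocytes (3.48), and Btbd17, a secreted BTB domain protein (3.46). The 10 most abundant genes of the pulldowns were Apoe, Rn45s, Cst3 (a cysteine protease inhibitor), Mir6236, Cpe (a carboxypeptidase of the secretory pathway), Clu (clusterin), Glul, Aldoc, Ndrg2 and Sparcl1. The top 10 genes of a library held 14.2% to 28.7% of summed FPKM in pulldowns and 3.21% to 4.69% in inputs.

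In the inputs the most abundant genes included the neuronal Nrgn and Snap25, the ferritin heavy chain Fth1 and the selenoprotein Selenow. Fth1 stood at 992, 2065, 1556, 1371 and 1739 FPKM in the 5 inputs, in the order given for Apoe, and at 183 to 436 FPKM in the pulldowns with a median of 298. It fell by 2.43 with no overlap between the fractions. Selenow fell by 1.36. Tspan7, a tetraspanin, was among the 10 highest genes of the inputs too, at no more than 1535 FPKM, and stood at 2731 FPKM or more in every pulldown. Its log2 difference of 1.88 passed on the deposited scale, but not under all scalings, and the same held for Cpe (2.60). Cox4i1, a subunit of cytochrome c oxidase, had a median of 1033 FPKM in the pulldowns and a log2 difference of 0.19.

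The label of the pulldown held against its markers. All 22 astrocyte markers rose, all with fractions that did not overlap, and their median was 2.74 where that of all genes was −0.31. Gfap, the intermediate filament that gives the driver its name, had 40.4, 54.2, 40.3, 47.8 and 44.2 FPKM in the inputs. It had 298.5, 517 and 656 FPKM as the lowest, median and highest pulldown values, and both lowest came from replicate 2 of the monocular groups. The gain of 3.36 ± 0.14 (SE, adjusted p = 6.1e-14 by limma) stood far above the spread within either fraction. The smallest gains of the list were those of the bicarbonate carrier Slc4a4 (2.11 ± 0.30), the water channel Aqp4 (2.16 ± 0.30) and the transcription factor Sox9 (2.20 ± 0.20). Slc4a4 and Aqp4 were lowest in replicates 1 and 2 of both monocular groups and replicate 1 of 10 days of darkness. There they had 34.3 to 57.7 and 36.4 to 67.7 FPKM, against 84.6 to 178.5 and 87.2 to 198.5 in the other pulldowns. The summed level of the list was 7.16 to 11.3 times that of the own input. Normal rearing stood at 9.89 to 11.3 times and dark rearing at 7.16 to 7.66 times, and these ranges did not overlap, but each rests on its own single input.

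Neuronal RNA was depleted and not absent. Of 12 excitatory, 12 inhibitory and 12 pan-neuronal markers all 36 fell, with medians of −2.48, −2.93 and −2.46. Summed excitatory markers kept 7.95% to 45.7% of the own input's level (median 16.5%), pan-neuronal markers 8.88% to 37.3% (15.4%) and inhibitory markers 4.86% to 18.6% (9.03%). Sst, the peptide somatostatin of one class of interneurons, fell from 219, 297.5, 239.5, 330.4 and 444.5 FPKM to between 3.5 and 9.2 FPKM (median 5.5), a change of −5.49 ± 0.20 (SE, adjusted p = 4.8e-15 by limma). Vip, Pvalb and Gad1, genes of other interneurons and of GABA synthesis, followed with −4.38, −4.29 and −3.95. Camk2a, a kinase of excitatory neurons, moved less, from 639 to 713 FPKM in the inputs to between 89.3 and 465 FPKM. Its highest pulldowns were 10 days of darkness replicate 4 and normal rearing replicate 3, at 465 and 370 FPKM. Normal rearing replicate 3 also held the highest Snap25 (349.5 FPKM, against 25.9 to 302 in the other pulldowns), a vesicle fusion protein of neurons.

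Microglial RNA was the most strongly depleted of the 12 cell types by median and was uneven between groups. All 14 markers fell with no overlap, with a median of −3.24. Ctss, a lysosomal protease, had 42.2, 94.8, 57.5, 45.3 and 47.3 FPKM in the inputs. Its pulldown values were 10.9, 14.1 and 18.2 FPKM after 10 days of darkness and 1.1 to 2.8 FPKM in the other 13 pulldowns. C1qa, a complement component, followed the same order, with 11.4, 11.9 and 25.7 FPKM against 1.4 to 4.3 FPKM. The summed markers kept 23.2% to 39.8% of the input's level after 10 days of darkness and 3.74% to 12.6% in the other groups, so the groups did not overlap. No microglial gene passed the test for a difference between groups, which is described at the end.

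**Figure D2:**
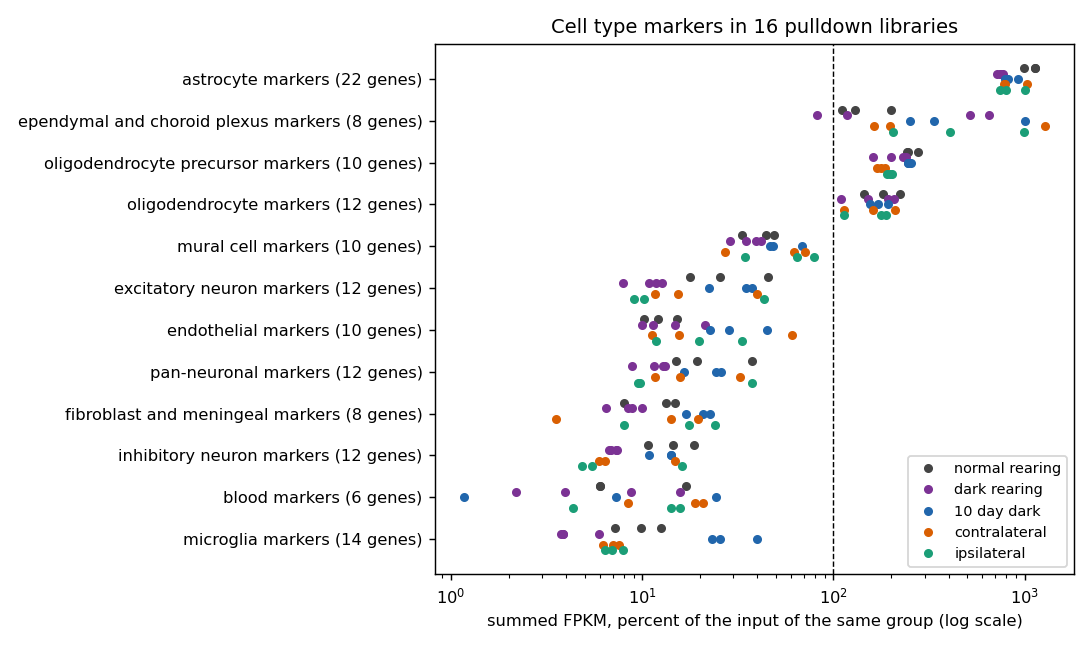
Summed FPKM of 12 cell type marker lists in each of the 16 pulldown libraries, as a percent of the input of the same group (log axis, dashed line at 100%), coloured by group. Astrocyte markers lie at 716% to 1126% and neuronal and microglial markers below 50%, with the 3 libraries of 10 days of darkness apart in the microglial row.

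The oligodendrocyte lineage was retained rather than depleted. Of 12 markers of mature oligodendrocytes 6 rose, and the 8 precursor genes Olig1, Olig2, Sox10, C1ql1, Cspg4, Neu4, Gpr17 and Pdgfra rose as well. Summed levels were 110% to 222% of the input's for oligodendrocytes and 162% to 278% for precursors. Cnp, a phosphodiesterase of myelin, had 96.6 to 167.5 FPKM in the inputs and 342 to 637 FPKM in the pulldowns, a gain of 1.70 ± 0.11. Mag, a myelin adhesion protein, gained 1.37 ± 0.22. Other myelin genes moved less. Mbp, at 647 FPKM on average in the inputs, had a log2 difference of 0.66 whose call was not kept under all scalings. Mobp stood at −0.06. Olig1 gained 1.48 ± 0.11, the most of the precursor list, whereas Lhfpl3 fell by 0.66. Astrocytes also express Olig1 and Olig2 at some level, and the 2 lists share no gene.

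Most vascular markers fell and 2 receptors rose. All 6 endothelial genes tested were lower (5 kept under all scalings), among them the tight junction gene Cldn5 (−2.20). Its pulldown values were 0.6 to 5.3 FPKM except for 15.1 FPKM in contralateral replicate 1, where the input had 17.0. Of 5 mural cell genes tested Vtn (vitronectin, −3.18) and Rgs5 (a regulator of G protein signalling, −1.80) fell, whereas Pdgfrb, the platelet-derived growth factor receptor used to mark pericytes, rose by 1.57 ± 0.19 (SE, adjusted p = 2.5e-07 by limma). Pdgfrb had 4.6, 4.4, 3.9, 4.9 and 3.9 FPKM in the inputs and 8.4, 15.7 and 22.7 FPKM as lowest, median and highest in the pulldowns, with no overlap. Notch3 rose too (0.82) and Tagln stood at 0.03. All 4 hemoglobin genes tested fell, by 1.76 to 2.26.

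Ciliated cell genes were uneven between pulldowns. Foxj1, the transcription factor of motile cilia, rose by 1.14 with no overlap, from 0.6 to 1.7 FPKM in the inputs to between 1.8 and 7.8 FPKM. Tmem212, a membrane protein, was listed at 0 in 4 inputs and 0.1 in the other, and in the pulldowns it ran from 0 to 8.5 FPKM. The highest values were 8.5 and 7.6 FPKM in replicate 1 of the contralateral and ipsilateral cortex, 6.2 in replicate 3 of 10 days of darkness and 5.4 in replicate 5 of dark rearing, where Ccdc153, a coiled-coil protein of cilia, was also at 10.9, 9.4, 7.1 and 5.4 FPKM. Both genes rose (1.30 and 1.43), with overlap. Their inputs reached at most 0.1 and 0.3 FPKM, so they passed the filter only through their pulldown values. A lower call was therefore not possible, and the direction of these calls carries no weight. Ependymal cells of the ventricle carry such cilia, and whether they expressed the tag was not tested.

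Genes of the uptake and recycling of transmitters were enriched. All 12 genes of glutamate and GABA uptake and turnover rose, 10 of them with no overlap (median 2.65). Glul, which turns glutamate into glutamine, gained 3.19, Slc25a18, a mitochondrial glutamate carrier, 3.14, and Slc38a3, which exports glutamine, 3.01. Slc7a10, a carrier of serine, glycine and alanine, gained 3.00 and Glud1, glutamate dehydrogenase, 2.62. Slc6a9, a glycine carrier, rose by 0.57, with overlap. Of 11 genes of potassium and water buffering 10 rose, from Dag1 (dystroglycan, 1.19) and Dtna (dystrobrevin, 1.58) to the potassium channels Kcnj16 and Kcnj10 (2.54) and Mlc1 (a membrane protein of astrocyte endfeet, 3.23). Slc12a2, the sodium, potassium and chloride carrier, did not pass (−0.28 ± 0.22, adjusted p = 0.25 by limma). It had 6.3 to 10.3 FPKM in the inputs and 2.8 to 10.6 FPKM in the pulldowns, so the fractions overlapped.

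Gene families divided between the fractions. In 21 pairs of related genes, the first chosen as the astrocyte form or the form thought more abundant in astrocytes, both genes were tested in 19. The first rose and the second fell in 10 of them, both rose in 4 and both fell in 0. The ratio of first to second was higher than in the own input in all 16 pulldowns for 17 of the 21, and in 5 pairs the second gene led in every input and the first in every pulldown. These pairs were chosen for known roles and with results of these data in view.

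Among aldolases, Aldoc rose from a mean of 408 to 4649 FPKM, whereas Aldoa stood at 894 and 804 FPKM and did not pass (adjusted p = 0.31 by limma). Enolases divided, with Eno1 at 1.18 and the neuronal Eno2 at −2.52. The beta subunits of the sodium pump did so too, Atp1b2 gaining 2.03 and Atp1b1 losing 2.31.

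Carriers and receptors followed with opposite changes within a family. Slc25a18 and Slc25a22, both mitochondrial glutamate carriers, changed by 3.14 and −2.35. Fabp7 and Fabp3, fatty acid binding proteins, changed by 2.65 and −2.44. Grm3 and Grm2, metabotropic glutamate receptors, had 20.6 and 23.5 FPKM in the inputs on average and 96.5 and 4.31 in the pulldowns. Kcnj10 and Kcnj4 changed by 2.54 and −2.26, Slc1a3 and Slc1a1 by 2.67 and −2.01, and Slc16a1 and Slc16a7, carriers of lactate, by 0.59 and −1.55. Ndrg2 gained 3.29 and its relative Ndrg4 lost 2.29.

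In other families both members were enriched. Pygm and Pygb, the glycogen phosphorylases known from muscle and brain, gained 3.21 and 2.92, and Pygb stayed the more abundant, at 419 against 128 FPKM in the pulldowns. Mt3 and Mt1, metallothioneins, gained 2.52 and 2.80, and their ratio was above that of the own input in 2 of 16 pulldowns. Sparcl1 and Sparc, secreted glycoproteins, gained 2.63 and 1.82. Cspg5 and Ncan, proteoglycans, gained 2.03 and 1.69. Ldhb, a lactate dehydrogenase subunit, rose by 1.59, whereas Ldha stood at 0.06.

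**Figure D3:**
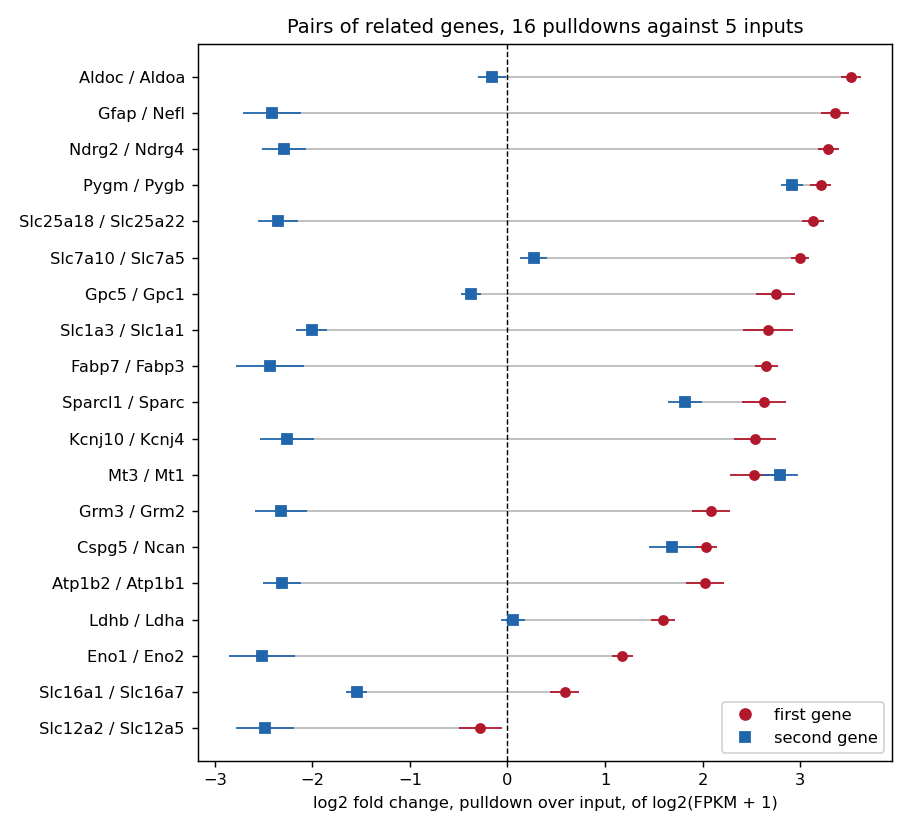
Log2 fold change of pulldown over input (horizontal, bars show the SE) for the first gene (red circles) and the second gene (blue squares) of the 19 pairs in which both were tested. The 2 symbols lie on opposite sides of 0 in the 10 pairs with opposite calls, such as Slc25a18 at 3.14 and Slc25a22 at −2.35, and lie close together for Pygm and Pygb.

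Energy metabolism was enriched by pathway and not throughout. All 15 genes of fatty acid oxidation and ketone bodies rose, with a median of 2.26, from Oxct1, which burns ketone bodies (0.45), to Acaa2, the last step of beta oxidation (3.32), and Acsbg1, an acyl-CoA synthetase (3.41). Cpt1a, which admits fatty acids to mitochondria, had 5.7 to 6.0 FPKM in the inputs and 24.4 to 54.4 FPKM in the pulldowns and gained 2.61. Among 24 genes of glycogen and glycolysis 16 rose and 1, Eno2, fell. The glycogen regulator Ppp1r3c gained 2.81 and the synthase Gys1 1.87, while the glycolytic enzymes Tpi1 (0.08), Pgam1 (−0.10) and Ldha did not pass. Of 20 genes of cholesterol synthesis 18 rose (median 1.36), such as Cyp51 (1.98) and Hmgcs1 (1.67). Hsd17b7 (0.14) and Ebp (−0.05) did not pass.

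Amino acid and antioxidant genes rose in part. In serine, glycine, folate and proline metabolism 12 of 14 rose, led by Prodh (proline dehydrogenase, 3.37) and Phgdh, the first enzyme of serine synthesis (3.36), with Gldc of the glycine cleavage system at 2.98 and Psat1 at 2.59. Among 18 genes of glutathione and metal defence 14 rose, including the transferases Gstm1 (3.37) and Gstm5 (2.93), the peroxiredoxin Prdx6 (2.97) and catalase, Cat (2.12). Gpx1, a glutathione peroxidase, fell by 0.91, and Gclc, Gpx4 and Gsr did not pass.

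Of 87 nuclear genes of the respiratory chain and its assembly 32 rose and 3 fell, and their median was 0.31. Of all genes tested 26.2% rose and 35.3% fell, with a median of −0.31. Subunits with tissue-specific forms departed from the median of the list. Cox4i2 rose by 2.20, from 0.9 to 3.6 FPKM in the inputs to between 7.4 and 18.5 FPKM, and Cox6b2 by 1.86. Cox6a2, known from heart and muscle, fell by 2.89, from 4.4 to 18.3 FPKM in the inputs to between 0.2 and 1.3 FPKM. The table held no mitochondrially encoded gene.

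Regulators of astrocyte identity were enriched. Of 20 transcription factors 18 rose, led by Dbx2 (2.95), Id3 (2.80), Id4 (2.49), Rfx4 (2.43) and Emx2 (2.37), with Sox9 at 2.20. Nfib did not pass (0.29), and Nfix had a log2 difference of −0.42 whose call was not kept under all scalings. Of 14 genes of Notch and Hedgehog signalling 13 rose, among them the Notch target Nrarp (1.93) and the Hedgehog receptor Ptch1 (1.52). Gli1, a Hedgehog target of low level, had 0.3 to 0.7 FPKM in the inputs and 1.0 to 4.1 FPKM in the pulldowns.

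Secreted and engulfment genes rose in most cases. Of 11 secreted regulators of synapses tested 9 rose, among them Gpc5 (a glypican, 2.75), Thbs4 (a thrombospondin, 2.63), Il33 (a cytokine, 2.13), Chrdl1 (a BMP antagonist, 2.09), Gpc6 (1.45) and Gpc4 (1.36). Bmp6 did not pass (−0.03). The TAM receptors divided. Mertk rose by 2.08 and Axl by 2.61, whereas Tyro3 fell by 1.16, from between 47.1 and 62.1 FPKM to between 16 and 39.9 FPKM. Megf10, another engulfment receptor, rose by 1.83, and the ligand Gas6 by 0.36.

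Receptors for neuromodulators showed no common direction: 8 of 16 rose and 7 fell. Ntsr2, a neurotensin receptor, rose by 3.19, from 52.3 to 108 FPKM in the inputs to between 512 and 902 FPKM. The adenosine receptor Adora2b gained 2.28 and Adora1 lost 1.04, and the endothelin receptor Ednrb gained 1.94. The metabotropic receptor Grm5 fell by 2.38, the beta adrenergic Adrb1 by 1.96, the muscarinic Chrm3 by 2.41 and the cannabinoid receptor Cnr1 by 2.20. Among 18 growth factor receptors 11 rose and 4 fell. Fgfr3 (2.74), Ntrk2 (2.39), Fgfr1 (2.18) and Cntfr (2.14) led. Ntrk2 is counted as 1 gene, and its full-length and truncated forms were not separated. Erbb4, a neuregulin receptor, fell by 2.06 and Tgfbr2, a TGF-beta receptor, by 1.45.

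Of 13 reactive astrocyte genes tested, 9 rose and 1 fell. Vim, an intermediate filament, rose by 2.60, the class I antigen gene H2-K1 by 2.23 and the complement gene C4b by 2.12. S1pr3, a sphingosine phosphate receptor, fell by 1.47. Serpina3n, a protease inhibitor, rose by 1.93 ± 0.41, with 10.3 FPKM in the normal rearing input and 2.2 to 3.1 FPKM in the other inputs. Its pulldown values ran from 6.5 to 61.8 FPKM with a median of 11.4, and the highest 6 were the 3 normal rearing pulldowns (27.8 to 57.2 FPKM), dark rearing replicate 5 (61.8 FPKM) and replicate 2 of the contralateral and ipsilateral cortex (43.3 and 42.6 FPKM).

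Synaptic genes fell, with a few receptor subunits as exceptions. All 18 synaptic vesicle genes fell with no overlap, by 1.85 to 3.68. Of 20 postsynaptic scaffolds 17 fell and 1, Homer3, rose by 1.28 ± 0.10. Homer3 had 5.0, 6.6, 6.1, 8.6 and 8.8 FPKM in the inputs and 15.1 to 21.5 FPKM in the pulldowns, whereas its relatives Homer1 and Homer2 fell by 2.44 and 1.40. Gphn, gephyrin, did not pass (−0.10). Among 16 ionotropic glutamate receptor subunits 11 fell and 2 rose. Grin2c, an NMDA receptor subunit, had 8.2, 10.7, 9.0, 8.2 and 10.3 FPKM in the inputs and 47.1, 73.5 and 102 FPKM as lowest, median and highest in the pulldowns. It gained 2.85 ± 0.13 (SE, adjusted p = 9.6e-14 by limma), where Grin1, the obligatory subunit, lost 2.31.

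GABA-A receptor subunits followed the same pattern, with 8 of 12 lower and 2 higher. Gabrg1 rose by 1.93 ± 0.24, from 2.4 to 4.8 FPKM in the inputs to between 6.9 and 27.6 FPKM, and its 4 lowest pulldowns were replicates 1 and 2 of both monocular groups. Gabrb1 rose by 1.28. Gabrb2 lost 3.00. Gabra2 did not pass (−0.09, adjusted p = 0.81 by limma), with 19.3 FPKM on average in the inputs and 19.8 in the pulldowns. Of 13 neuropeptide genes 12 fell and Nmb, neuromedin B, rose by 0.83 with overlap.

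Among 64 potassium channel genes 10 rose and 47 fell. Kcne1l, an accessory subunit, rose the most (2.94), from 1.5 to 3.5 FPKM in the inputs to between 19.1 and 32.1 FPKM, and the 2-pore channel Kcnk1 gained 1.36. Kcnc2 and Kcnc1, channels of fast-spiking neurons, lost 3.35 and 3.09. Among 209 genes named as solute carriers 71 rose and 84 fell, where 26.2% of all genes tested rose and 35.3% fell. Slc9a3r1, a scaffold that shares the name stem, and the peptide carrier Slc15a2 were among the highest, and Slc4a10 and Slc6a17 among the lowest.

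The clustered protocadherins, adhesion proteins made from variable first exons joined to shared last exons, divided by cluster. All 14 genes of the alpha cluster fell, by 2.67 to 2.77, and all 22 of the gamma cluster rose, by 0.93 to 1.29, with no overlap in either cluster. Alpha genes had means of 26.1 to 31.6 FPKM in the inputs and 3.51 to 4.09 in the pulldowns, and gamma genes 117 to 143 and 253 to 357. Values within a cluster are nearly alike because the shared exons count for each member, so each cluster stands for 1 observation and not for many. Pcdhgc3 lay highest, at 1.29. Of 8 beta cluster genes tested, which share no exons, 7 had lower calls on the deposited scale.

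Activity-induced transcripts were lower in the pulldown. All 20 immediate early genes were called lower and 18 were kept under all scalings, Jun and Jund being the exceptions. For 5 of the 20 all pulldowns lay below all inputs, as they did for 28.9% of all genes tested. Egr1 fell by 2.80 ± 0.42, from 307.5, 136, 130.3, 171 and 344 FPKM in the inputs to between 6.0 and 115 FPKM with a median of 26.1, and Arc by 2.15 ± 0.38. Arc in the dark rearing input was 38.4 FPKM, below several pulldowns of other groups, and 98.1 to 376 FPKM in the other inputs, so its fractions overlapped. Per library, the median of the list against the own input was −2.66 ± 0.53 (SD, n = 3) in the ipsilateral, −2.49 ± 0.31 (SD, n = 3) in the contralateral and −1.02 ± 0.43 (SD, n = 3) in the 10 days of darkness group. Inputs and pulldowns of one group share their treatment, so these differences hold any effect of treatment on either fraction.

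The RNA of the tagged protein changed little, and tagged and untagged transcripts were not separated. Rpl22 had 20, 33.2, 27.1, 27.1 and 30 FPKM in the inputs and 27.2, 32.2 and 42.6 FPKM as lowest, median and highest in the pulldowns. It rose by 0.24 ± 0.09 (SE, adjusted p = 0.023 by limma), with overlap, and 14 of 16 pulldowns exceeded their own input. Its paralog Rpl22l1 fell by 0.89 and lay below the own input in all 16. Of 62 cytosolic ribosomal protein genes 37 were lower on the deposited scale (median −0.55), of which 14 were kept under all scalings, and 4 rose. Over all genes tested 50.7% were lower on the deposited scale, and under all scalings 35.3% fell and 26.2% rose. The shares of ribosomal protein genes that fell and that rose under all scalings were thus both below those of all genes. The median of the list lay below that of all genes on each scale. It was −0.55 against −0.31 as deposited, −0.37 against 0.01 after quantile normalization and −0.23 against −0.01 after median-ratio scaling. Rps15a fell most, by 1.48, and Rpl23a rose most, by 1.02, from a level near 1.72 FPKM. Many ribosomal protein genes have pseudogene copies that can take reads, so single values are uncertain. By group the list's median ran from 0.03 ± 0.29 (SD, n = 3) in normal rearing to −1.25 ± 0.22 (SD, n = 4) in dark rearing. Rplp1, for example, had 532 FPKM in the dark rearing input and 159 FPKM in the normal rearing input, against 85.1 to 275 FPKM in all pulldowns.

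Of 11 nuclear and structural noncoding RNAs tested 6 fell and 1, Rn45s, rose. Meg3, Rian and Snhg11, long noncoding RNAs abundant in neurons, fell by 3.38, 3.21 and 2.78, Peg13 by 2.38 and Miat by 2.27. Malat1, retained in nuclear speckles, had 20.4, 5.1, 7.0, 13.5 and 9.8 FPKM in the inputs and 1.5 to 15.9 FPKM in the pulldowns, which overlapped, and did not pass (−0.72, adjusted p = 0.092 by limma). The dark rearing input was the lowest of the 5 for several of these RNAs. It held 10.1 FPKM of Meg3 (57.1 to 113 in the other inputs), 16.4 of Snhg11 (43.3 to 88.3), 4.4 of Miat (12.3 to 27.6) and 0.6 of Neat1 (1.2 to 4.2), but 48.0 of Rian (44.7 to 60.1).

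FPKM of Rn45s varied widely between the pulldowns, and precursor and mature ribosomal RNA were not told apart at this gene. Rn45s had 37.4, 123, 128, 569 and 103 FPKM in the inputs and a mean gain of 5.22 ± 1.18 (SE, adjusted p = 4.6e-04 by limma), with overlap. Lars2, a mitochondrial leucyl-tRNA synthetase, moved with it. It had 15.3, 16.4 and 19.2 FPKM in the 3 pulldowns low in Rn45s, 79.0 to 635 FPKM in the other 13, and 6.8 to 41.2 FPKM in the inputs, where the contralateral input was highest in both. Among 35 aminoacyl-tRNA synthetase genes the next largest gain was that of Fars2 (1.81). Together Rn45s and Mir6236 held 0.173% to 13.1% of summed FPKM in pulldowns and 0.0432% to 0.539% in inputs. Without the 3 pulldowns low in Rn45s, 3205 genes were higher and 6465 lower, of 12085 tested.

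**Figure D4:**
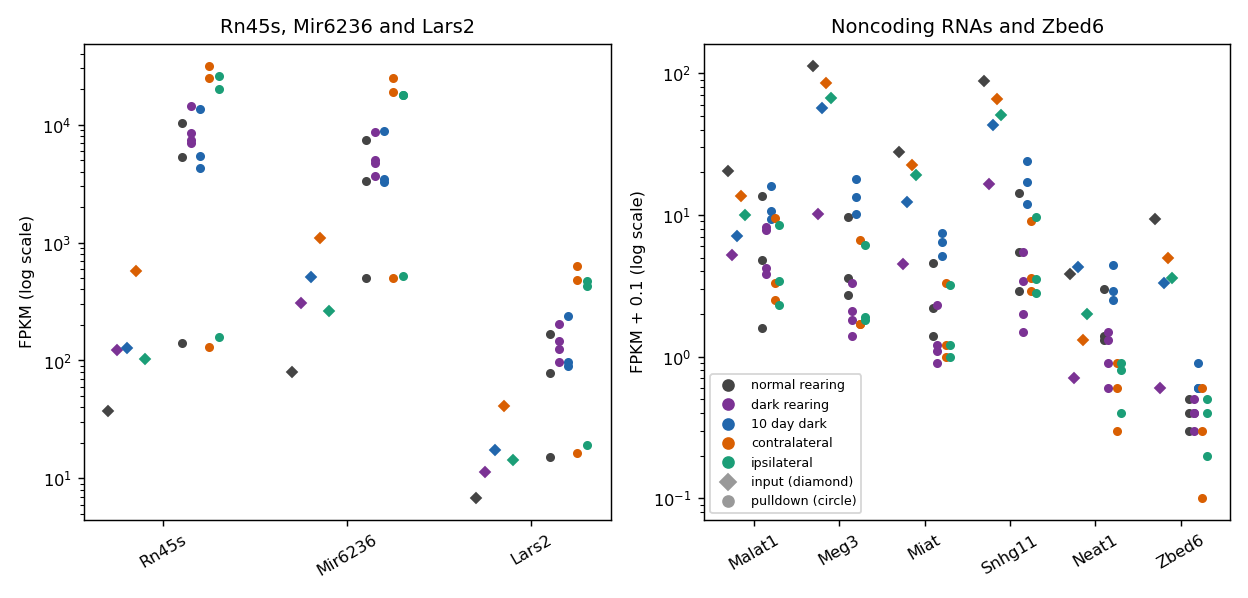
Left, FPKM (log axis) of Rn45s, Mir6236 and Lars2 in each input (diamonds) and pulldown (circles), coloured by group. Right, FPKM plus 0.1 (log axis) of 5 noncoding RNAs and Zbed6. In the left panel 3 pulldowns lie near the inputs, at 130.3 to 159.5 FPKM of Rn45s, and in the right panel the dark rearing input is the lowest input for each gene.

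Several microRNA genes carried the change of the gene they lie in. The libraries held polyadenylated RNA, so reads at such a locus report transcripts that cross it and not the mature microRNA. Of 82 microRNA genes tested 58 overlapped a tested gene on the same strand in GENCODE vM21. Of these 58, 32 were called in either direction on the deposited scale. The overlapping gene was called the same way for 29, the other way for 2 and not called for 1. The mature sequences at 4 of these loci and at Mir6236 are given from RefSeq (GRCm38.p6) with the seed, bases 2 to 8, in capitals, to show which loci these were. The first 3 rose, the last 2 fell, and no seed was shared.
mmu-miR-6236, chr9:110281353-110281371, plus strand: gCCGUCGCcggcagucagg
mmu-miR-5114, chr19:44303171-44303192, plus strand: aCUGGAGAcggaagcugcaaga
mmu-miR-7653-5p, chr11:78178827-78178848, plus strand: uAAGGGGCggacagacagacgg
mmu-miR-770-5p, chr12:109563710-109563731, plus strand: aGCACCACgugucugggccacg
mmu-miR-5617-5p, chrX:20863160-20863182, minus strand: gUAAGUGAgggcaagccuucugg
Mir5114 lies in Scd2, a desaturase of fatty acid synthesis, and both rose, by 2.05 and 2.24. It had 558, 479, 552.0, 421 and 463 FPKM in the inputs and 807 to 3608 FPKM in the pulldowns. Mir7653 lies in Tlcd1, a membrane lipid regulator, and both rose (2.89 and 2.73). Mir770 lies in Meg3, and both fell (by 2.99 and 3.38), and Mir5617 in Syn1, synapsin, and both fell (by 2.49 and 2.45). Mir6236 overlapped no tested gene and gained 3.80. It had 496 to 519 FPKM in the 3 pulldowns low in Rn45s and 3249 to 24947 FPKM in the other 13.

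Longer transcripts were less enriched. Over 11403 protein-coding genes with a known transcript length the median log2 difference went from −0.05 in the shortest of 4 equal groups (up to 1847 bases) over −0.20 and −0.41 to −0.61 in the longest (from 4354 bases). The share of higher genes went from 34.2% over 31.5% and 23.7% to 16.5%. Quantile normalization left the order of the 4 medians (0.23, 0.12, −0.06 and −0.27). Length goes with gene function and cell type, and its part in the changes above was not tested.

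Whether enrichment differed between the 5 groups was tested with 4 terms for group by fraction. At an adjusted p under 0.05 by limma, 1 of 12070 genes (0.00829%) passed, Zbed6, and 366 had an unadjusted p under 0.05. Zbed6, a transcription factor derived from a DNA transposon, had 9.2, 0.5, 3.2, 4.9 and 3.5 FPKM in the inputs of normal rearing, dark rearing, 10 days of darkness and the contralateral and ipsilateral cortex. It had 0 to 0.8 FPKM in all pulldowns. The F statistic was 25.2 (adjusted p = 0.0206 by limma). A group without its only input has no comparison, so leaving out an input took its pulldowns with it. Without the dark rearing group, input and pulldowns together, the adjusted p was 0.999959 by limma. No gene passed without the whole group of normal rearing, dark rearing or 10 days of darkness. The same held without 10 days of darkness replicate 3 or normal rearing replicate 2 or 3, each pulldown left out alone. It also held without dark rearing replicate 4, 5 or 6, or contralateral replicate 1. Each group had 1 input, which was assumed to vary like the pulldowns. On simulated data, with the dark rearing pulldowns alone shifted, the test recovered 0% of differences of 1 and 54.5% of differences of 2 (log2 scale). A shift in the 10 days of darkness group, where the microglial genes stood apart, was not simulated. How often the test would find such a difference is therefore not known, and it may miss one.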

How the data were processed

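The deposited table gave FPKM per gene and library, rounded by the authors to 1 decimal. The submitters' processing notes name build mm10, the aligner STAR 2.5.1b and HOMER 4.10, beside DESeq2, FastQC 0.11.2, R 3.4.3 and CASAVA 1.8.2. How each was used is not given in the sources used here. Read counts were not used here.

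Of 24537 genes, 12070 averaged more than 1 FPKM across the 21 libraries and were tested. FPKM was transformed to log2(FPKM + 1) and fitted with limma 3.58.1 (R 4.3.3) with terms for group and fraction, a variance trend and robust moderation, and Benjamini-Hochberg adjustment over all genes tested at 0.05. Differences between groups were tested with the terms for group by fraction together. Tables and figures were made with Python 3.11.15, pandas 2.3.3, numpy 2.4.6 and matplotlib 3.10.9. Simulated data with 200 changed genes were used to test the fits. For pulldown against input they recovered 45.0% of changes of 0.5 and 87.0% of changes of 1 on the log2 scale.

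The genes and lists were chosen with earlier results of these data known. Genes were named by a rule: the 5 largest changes each way with no overlap, the 10 most abundant of each fraction, the members of short lists, up to 6 called members each way of longer lists, related pairs, and the genes that check the tag. Scd2, Syn1 and Tlcd1 were named as genes that hold a microRNA locus, after their values were seen. A kinase gene caught by the name pattern for ribosomal proteins was removed after the data were seen. The labels do not say that replicates came from separate animals, so p-values measure the spread between these samples. 1 column of a sample outside the set was not used. Results for some genes are not reported here.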

Additional observations from a re-analysis of the deposited data

Results flagged for a closer look

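Samples were compared within the 5 inputs and within the 4 dark rearing pulldowns, for the genes named and the summed cell type markers, by the gap of the highest or lowest sample to its nearest neighbour as a share of the range. Of 428 such groups 41 held a sample set apart by Dixon's criterion at 95%. Among samples of one kind chance alone flags about 5%. That rate does not hold for the 5 inputs, since each had its own age or treatment. Whether a flagged input differed by these or by library was not tested. Near 0, rounding to 0.1 FPKM alone can set a sample apart. The values of one library are not independent of each other. The dark rearing input stood apart in Mfge8 at 215.9 FPKM (92.9 to 113 in the others), Tspan7 at 1535 FPKM (747.4 to 963.1 in the others), Camk2a at 638.7 FPKM (692.9 to 712.7 in the others), Cspg4 at 1.9 FPKM (2.4 to 2.6 in the others) and Slc38a3 at 34.9 FPKM (18.6 to 22.5 in the others). It also held Mlc1 at 159.6 FPKM (70.3 to 95.4 in the others), Prdx6 at 176.6 FPKM (82.2 to 108.6 in the others), Gsr at 14.7 FPKM (8.4 to 9.7 in the others), Cox6b2 at 3.7 FPKM (1.3 to 1.7 in the others) and Mertk at 7.2 FPKM (10 to 10.9 in the others). Further values there were Axl at 17.1 FPKM (11.2 to 12.3 in the others), H2-K1 at 13.1 FPKM (6.6 to 8.4 in the others) and Nmb at 4.7 FPKM (2.5 to 2.7 in the others). The normal rearing input stood apart in Grm3 at 24.1 FPKM (19.4 to 20 in the others), Grm2 at 21 FPKM (23.9 to 24.6 in the others) and Serpina3n at 10.3 FPKM (2.2 to 3.1 in the others). The contralateral input held Rn45s at 569.3 FPKM (37.4 to 127.8 in the others). The ipsilateral input held Tmem212 at 0.1 FPKM (0 in the others) and Pgam1 at 10.4 FPKM (8.8 to 9.2 in the others). The summed blood markers came to 76.8 FPKM in the input of 10 days of darkness and 8.3 to 25.4 in the other inputs.

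Among the dark rearing pulldowns replicate 1 stood apart most often. Its summed microglia markers came to 41.7 FPKM, against 26.4 to 27.3 in the others. Replicate 1 held Tspan7 at 4537 FPKM (4253 to 4278 in the others), Ctss at 2.8 FPKM (1.2 to 1.3 in the others), C1qa at 3.5 FPKM (1.5 to 1.8 in the others), Gpr17 at 13.6 FPKM (24.2 to 26 in the others) and Slc12a2 at 4.7 FPKM (8 to 8.5 in the others). It also held Atp1b1 at 75.3 FPKM (109 to 114.7 in the others), Grm2 at 2 FPKM (3 to 3.1 in the others), Acaa2 at 168.4 FPKM (143.4 to 145.4 in the others), Prdx6 at 1138 FPKM (906.7 to 941 in the others) and Ptch1 at 20.4 FPKM (26 to 26.9 in the others). Further values there were Bmp6 at 1.4 FPKM (1.9 to 2 in the others) and S1pr3 at 0.3 FPKM (0.5 in the others). Replicate 4 held Chrdl1 at 28.2 FPKM (19.6 to 20.4 in the others) and Scd2 at 2034 FPKM (1669 to 1704 in the others). Replicate 5 held Pygm at 143.2 FPKM (111.3 to 116.6 in the others) and Serpina3n at 61.8 FPKM (7.3 to 8.6 in the others). Replicate 6 held Pdgfrb at 13.8 FPKM (17.8 to 18.2 in the others), Gpc4 at 10.2 FPKM (11.2 to 11.4 in the others), Cntfr at 176.3 FPKM (195.7 to 197.9 in the others) and C4b at 7.8 FPKM (9.6 to 9.9 in the others).

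Zbed6 was the gene whose pulldown-to-input difference varied between groups, with an F statistic of 25.17 (adjusted p = 0.0206 by limma). The adjusted p ranged from 1.02e-05 to 0.999959 over the alternatives run.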

How the results depend on the processing

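Counts of genes higher and lower in the pulldown kept within 1.5 times of the reported 3185 and 6115 under the alternatives run, except that 3604 were lower when a mean above 5 FPKM was required, which left 7922 genes. Leaving out 1 library at a time gave 2923 to 3266 higher and 5602 to 6278 lower. With the replicate block, which pairs same-numbered pulldowns of the 2 hemispheres (estimated correlation 0.801), 3210 were higher, 6052 lower and 1 differed between groups. The inputs carry no replicate number. Of 455 named genes tested, 384 kept their call under all 35 alternatives, 46 lost it under at least 1, 25 gained one under at least 1, and 0 changed sign past the threshold.

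The count of genes whose enrichment differed between groups, 1 as reported, depended on the setting. It was 0 with a pseudocount of 0.1 or a mean above 5 FPKM, 94 with a pseudocount of 5, 871 without a filter, 9 after rescaling without Rn45s and Mir6236, and 1637 with array weights. It was 4 with only the day 45 groups, 4 without the monocular groups and 6 without the 3 pulldowns low in Rn45s. Leaving out 1 pulldown gave 0 to 3. It was 0 without 10 days of darkness replicate 3, normal rearing replicate 2 or 3, dark rearing replicate 4, 5 or 6, or contralateral replicate 1. It was 3 without contralateral replicate 3, and 2 without ipsilateral replicate 1 or 2. Leaving out 1 whole group, input and pulldowns together, gave 0 to 2. It was 0 without 10 days of darkness, normal rearing or dark rearing, 1 without the contralateral group and 2 without the ipsilateral group. The cause was not tested. Values are rounded to 0.1 FPKM, which limits precision for genes near 1 FPKM.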

Other observations

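Of 67 heat shock, DnaJ and chaperonin genes 15 rose and 22 fell, and their median of −0.32 was near that of all genes (−0.31), of which 26.2% rose and 35.3% fell. Hspb8, a small heat shock protein, rose by 2.79 and Hspb6 by 1.44, whereas Dnajc6, which uncoats clathrin vesicles in neurons, fell by 2.80 and Hspa12a by 2.57. Of 37 proteasome subunits 14 rose and 1 fell, and their median of 0.07 lay above that of all genes. Psma3 fell by 1.06.

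Among 10 genes whose names begin like collagens 4 rose and 2 fell (median −0.18). Col9a3, Col11a2 and Col16a1 rose by 2.12, 1.84 and 1.53. Col4a3bp, which is no collagen but a ceramide carrier, fell by 1.04. Of 3 fibroblast genes tested Igf2, an insulin-like growth factor, fell by 3.18. Of 13 hosts of small nucleolar RNAs 5 fell and 1, Snhg18, rose by 0.62. Snhg8 and Snhg12 fell by 1.94 and 1.84. Among 441 noncoding genes 113 rose and 137 fell, near the shares of all genes tested (26.2% and 35.3%).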
